A study of Homo sapiens with 6 samples.

Results

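The genes described here encode the HIF transcription factor subunits and the proteins that read oxygen for them: the alpha subunits HIF1A, EPAS1 and HIF3A, their partners ARNT and ARNT2, the prolyl hydroxylases EGLN1, EGLN2 and EGLN3, the asparaginyl hydroxylase HIF1AN and the ubiquitin ligase subunit VHL. They were chosen by name as the subunits and sensors of the pathway, and the transcripts of each were found by GENCODE 44 symbol. All 10 were among the 62252 genes of the files. K562 cells are a human leukemia line that shows traits of red cell precursors. The libraries were made from polyA RNA of K562 cells that carry a Flag-PCBP1 cassette under a tet-inducible promoter, with 3 control libraries without doxycycline (−Dox) and 3 PCBP1 OE libraries with doxycycline (+Dox). PCBP1 is an RNA-binding protein that also delivers iron to other proteins. Both groups carry the cassette, which replaced a blasticidin-resistance cassette at the AAVS1 locus of a K562 line grown from 1 clone. Since +Dox cells alone received the drug, effects of Dox itself and of Flag-PCBP1 cannot be told apart. The dose and time of Dox for these libraries are not given in the sources used here. The labels do not say whether the replicates were separate cultures, so p-values measure the spread between these libraries, which may be technical.

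In the HIF pathway, an alpha subunit pairs with ARNT or ARNT2 and switches on genes for oxygen delivery and glycolysis. When oxygen is present, the EGLN enzymes hydroxylate prolines of the alpha subunit, VHL binds the hydroxylated form, and the subunit is degraded. HIF1AN hydroxylates an asparagine and so blocks the binding of coactivators. The EGLN enzymes and HIF1AN need iron and 2-oxoglutarate as well as oxygen, and PCBP1 and PCBP2 are known to supply iron to the prolyl hydroxylases. Alpha subunits are controlled mainly as proteins, and only mRNA was measured here.

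Total estimated counts were 84177316, 80104627 and 74766040 in −Dox libraries 1, 2 and 3, and 70905656, 82263502 and 82449808 in +Dox libraries 1, 2 and 3. Levels are given as CPM, the counts scaled to library size with TMM normalization, or, where genes are compared with each other, as TPM, which is also scaled for transcript length. PCBP1 (ENSG00000169564) served as the check of the labels. It was at 247.5, 269.5 and 266.9 CPM in −Dox and at 1030, 936.4 and 1037 CPM in +Dox, a log2 fold change of 1.94 (SE 0.055, with an adjusted p of 5.22e-10 in edgeR, where SE is the standard error). These values pool reads of the cassette with those of the endogenous gene.

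Among the sensors, EGLN3 mRNA fell in +Dox, to 0.700 of its −Dox level by the fitted fold change. No other member passed the test. HIF1A and ARNT differed by log2 values within 0.06 of 0, and EPAS1 was low and variable. HIF3A and ARNT2 were close to 0 counts in all libraries. Of the 10 genes, 8 had a mean count above 10 and were tested, and 1 of these 8 (12.5%) was called at an adjusted p under 0.05 in edgeR, with Benjamini-Hochberg adjustment over 21045 genes. Of all genes tested, 15.8% were called (8.16% higher and 7.68% lower), so the share among the members is near the background. None of the members was a DEG, a called gene whose log2 fold change was also beyond 1 in either direction, against 1.46% of all genes. The median log2 fold change of the 8 genes was −0.058, and that of all genes tested was 0.0061. The groups did not overlap in CPM for 2 of the 8 genes, EGLN2 and VHL, against 33.2% of all genes.

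**Figure D1:**
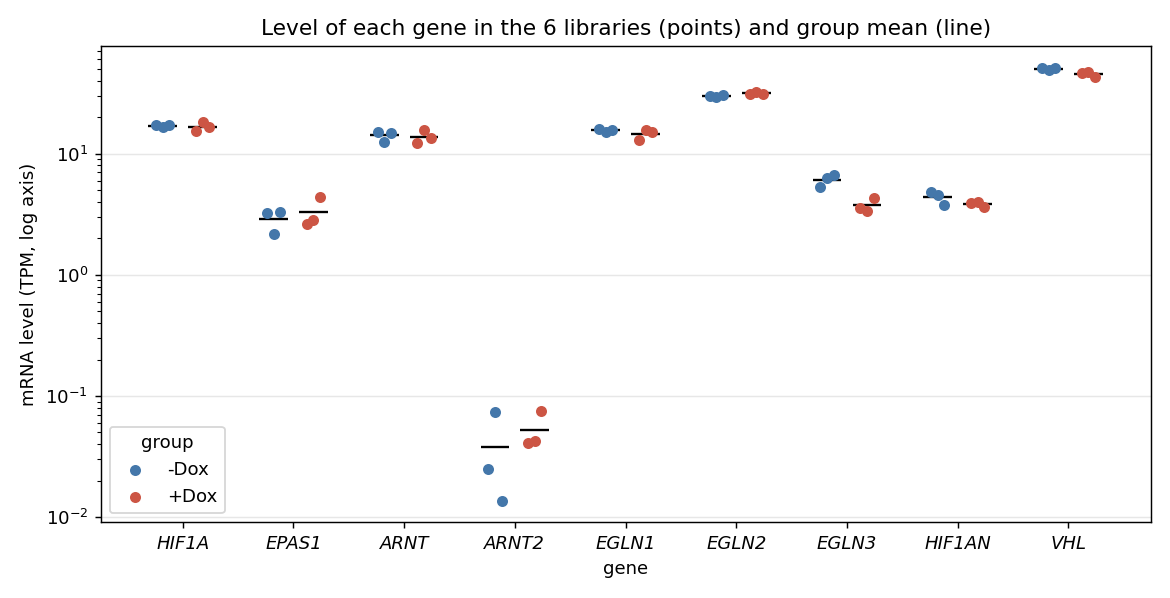
mRNA level of each gene in TPM on a log axis, with a point for each of the 3 −Dox (blue) and 3 +Dox (red) libraries and a line at the group mean. VHL is highest near 50.2 TPM in −Dox, ARNT2 lies below 0.1 TPM, and HIF3A, which reached at most 4 counts, is left out because a log axis cannot show a level of 0.

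HIF1A (ENSG00000100644, chr14:61695513-61748259 on GRCh38, plus strand), the most broadly used alpha subunit, was at 52.4, 52.3 and 50.4 CPM in −Dox and at 51.0, 55.1 and 53.8 CPM in +Dox. The groups overlapped. The log2 fold change was 0.043 (SE 0.052, edgeR adjusted p = 0.648), with a 95% interval of −0.069 to 0.16, or −4.65% to 11.4%. EPAS1 (HIF-2 alpha, ENSG00000116016, chr2:46293667-46386697, plus strand), the alpha subunit best known for control of erythropoietin, was at 6.17, 5.98 and 8.06 CPM in −Dox and at 6.09, 5.33 and 8.44 CPM in +Dox. Replicate 3 was highest in both groups, and the groups overlapped. Its log2 fold change was −0.024 (SE 0.16, edgeR adjusted p = 0.948), and the 95% interval of −23.1% to 25.8% is wide. HIF3A (ENSG00000124440, chr19:46297042-46343433, plus strand), whose protein can restrain the other alpha subunits, had 0 counts in each −Dox library and 0, 4 and 2 counts in +Dox. No fold change is given for so few counts.

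ARNT (ENSG00000143437, chr1:150809713-150876708, minus strand), the constitutive partner of the alpha subunits, was at 48.1, 46.8 and 49.2 CPM in −Dox and at 48.6, 52.4 and 48.4 CPM in +Dox. The groups overlapped, with a log2 fold change of 0.053 (95% interval −0.062 to 0.17, edgeR adjusted p = 0.574). ARNT2 (ENSG00000172379, chr15:80404350-80597933, plus strand), the partner known from neurons, had 2, 6 and 1 counts in −Dox and 3, 6 and 6 in +Dox, and was not tested. Point estimates for HIF1A, EPAS1 and ARNT took the opposite sign when TPM in place of counts was fitted with limma, at −0.034, 0.15 and −0.032, so no direction is read from them.

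The 3 prolyl hydroxylases did not move alike in their estimates, and EGLN3 alone was called. EGLN1 (PHD2, ENSG00000135766, chr1:231363751-231422287, minus strand), the main HIF hydroxylase in most cells, was at 54.6, 55.0 and 54.3 CPM in −Dox and at 48.9, 50.1 and 54.9 CPM in +Dox. The third +Dox library reached the −Dox range and the other two lay below it. The log2 fold change was −0.091 (95% interval −0.21 to 0.028, edgeR adjusted p = 0.313). EGLN2 (PHD1, ENSG00000269858, chr19:40798996-40808434, plus strand) was at 62.2, 67.0 and 66.1 CPM in −Dox and at 71.0, 68.1 and 68.5 CPM in +Dox. All +Dox values were above all −Dox values, by a small margin, with a log2 fold change of 0.088 (95% interval −0.021 to 0.20, edgeR adjusted p = 0.284).

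EGLN3 (PHD3, ENSG00000129521, chr14:33924227-34462774, minus strand), itself a classical gene induced by HIF in low oxygen, was at 11.3, 14.2 and 15.5 CPM in −Dox and at 8.37, 8.90 and 11.5 CPM in +Dox. The groups overlapped in CPM, since the third +Dox library (11.45 CPM) lay above the first −Dox library (11.35 CPM), and the other two +Dox values lay below all −Dox values. The log2 fold change was −0.51 (SE 0.13, 95% interval −0.80 to −0.23, edgeR adjusted p = 0.0171), a change of −30.0% with a 95% interval of −42.4% to −14.9%. In TPM the libraries were at 5.27, 6.27 and 6.62 in −Dox and at 3.59, 3.37 and 4.31 in +Dox, and the groups did not overlap. With 3 libraries against 3, a two-sided exact permutation test of the CPM values gave p = 0.2, where the smallest possible is 0.1. The call was lost in edgeR without +Dox replicate 1 (log2 fold change −0.43, adjusted p = 0.0793), without +Dox replicate 2 (−0.46, adjusted p = 0.0648) and without −Dox replicate 3 (−0.41, adjusted p = 0.0848). It remained without each of the other 3 libraries, with adjusted p between 0.00259 and 0.0470 by edgeR.

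**Figure D2:**
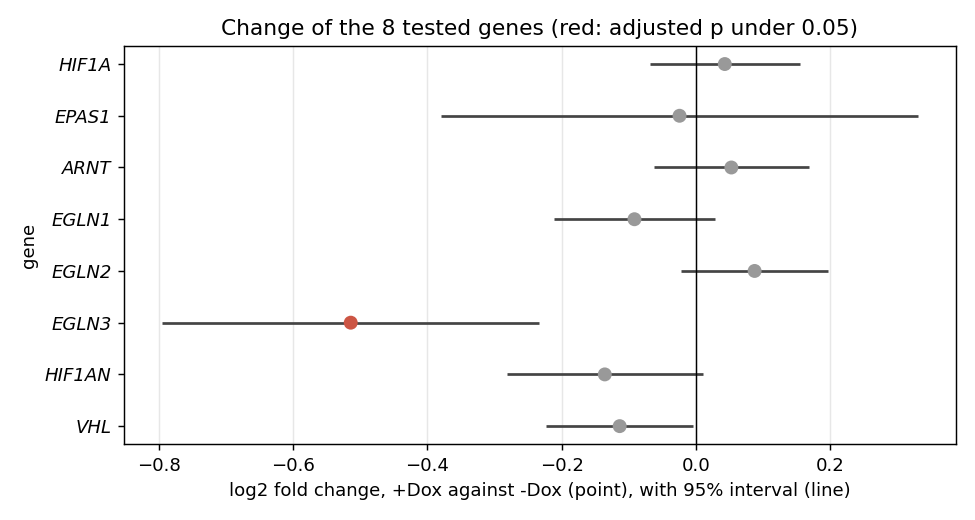
Log2 fold change of the 8 tested genes, +Dox against −Dox, as points with 95% intervals from edgeR, with the gene called at an adjusted p under 0.05 in red. EGLN3 lies at −0.51, and the other 7 points lie between −0.14 and 0.088.

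HIF1AN (FIH, ENSG00000166135, chr10:100529072-100559998, plus strand) was at 31.5, 28.7 and 26.7 CPM in −Dox and at 25.3, 26.9 and 27.0 CPM in +Dox. The third −Dox library lay within the +Dox range, and the log2 fold change was −0.14 (95% interval −0.28 to 0.010, edgeR adjusted p = 0.209). VHL (ENSG00000134086, chr3:10141778-10153667, plus strand), which recognises hydroxylated alpha subunits, was at 177.5, 185.6 and 181.0 CPM in −Dox and at 176.9, 168.5 and 157.7 CPM in +Dox. Every +Dox library was below every −Dox library, though the first of each group were nearly equal. The log2 fold change was −0.11 (95% interval −0.22 to −0.0036), which had an unadjusted p of 0.0439 and an adjusted p of 0.160 by edgeR.

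Per length, the order of levels in −Dox was VHL at 50.2 ± 1.38 TPM (SD, n = 3), EGLN2 at 29.9 ± 0.599, HIF1A at 17.1 ± 0.402, EGLN1 at 15.6 ± 0.374, ARNT at 14.2 ± 1.55, EGLN3 at 6.05 ± 0.697, HIF1AN at 4.39 ± 0.544, EPAS1 at 2.89 ± 0.629, ARNT2 at 0.038 ± 0.032 and HIF3A listed at 0. Of the 9 pairs of neighbours in this order, 8 had separate ranges over the 3 libraries, and EGLN1 and ARNT overlapped. HIF1A mRNA was thus far above EPAS1 mRNA in these cells, and ARNT mRNA, the shared partner, was near HIF1A mRNA. In +Dox, HIF1A (16.7 ± 1.48 TPM), EGLN1 (14.6 ± 1.47) and ARNT (13.9 ± 1.72) overlapped as neighbours, and so did HIF1AN (3.83 ± 0.193), EGLN3 (3.76 ± 0.489) and EPAS1 (3.30 ± 0.978). EGLN3, which was above HIF1AN and EPAS1 in each −Dox library, was no longer separate from either by TPM. Only 5 of the 9 neighbour pairs were separate in +Dox by TPM, but 8 were with CPM per kilobase of the longest transcript. By that measure EGLN3 stayed above both in +Dox, at 2.94 to 4.02 against 1.95 to 2.09 for HIF1AN and 1.03 to 1.64 for EPAS1.

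As a share of the summed TPM of the prolyl hydroxylases, EGLN3 was at 10.3%, 12.4% and 12.6% in −Dox and at 7.55%, 6.57% and 8.47% in +Dox. EGLN2 took 58.6%, 57.7% and 57.7% in −Dox and 65.3%, 63.0% and 61.6% in +Dox. The groups did not overlap for either share, with p = 0.1 in a two-sided exact permutation test, the smallest possible. These shares were added after the data were seen. They and the ratios below reuse the EGLN3 TPM values, so neither is independent of the fall of EGLN3. EGLN1 stayed at 30.3% ± 0.712 against 29.1% ± 1.78 (SD, n = 3, exact permutation p = 0.5). The mean log2 ratio of EGLN3 to EGLN1 TPM was −1.37 in −Dox and −1.96 in +Dox, and that of EGLN3 to EGLN2 was −2.31 in −Dox and −3.08 in +Dox, again without overlap (exact permutation p = 0.1 for each). EPAS1 made up 14.4% ± 2.50 of the summed TPM of HIF1A and EPAS1 in −Dox and 16.4% ± 4.14 in +Dox (SD, n = 3, exact permutation p = 0.6), and the third +Dox library stood highest at 21.2%.

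**Figure D3:**
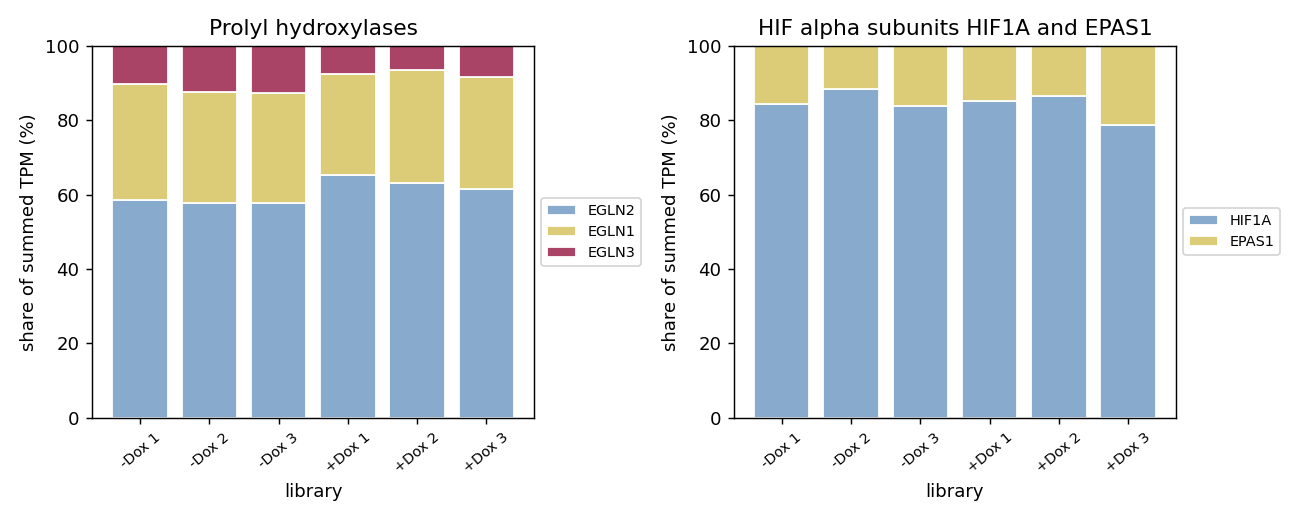
Stacked bars of the share (%) of summed TPM in each of the 6 libraries, for the prolyl hydroxylases on the left and for HIF1A and EPAS1 on the right. The EGLN3 segment is 10.3% to 12.6% in −Dox and 6.57% to 8.47% in +Dox, and the EGLN2 segment is larger in every +Dox library.

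Promoter sequences of the prolyl hydroxylases are shown because EGLN3 was the gene called. HIF binds short sites whose core is ACGTG or GCGTG. RefSeq promoters (GRCh38.p14, 250 bases before to 50 after the start) were matched by symbol for 8 of the 10 genes, with 12 windows. The letters ACGTG or GCGTG were searched on both strands and are in capitals. In EGLN2 the hits on the strands overlap in CACGTG, which is also the E-box sequence.
EGLN1 promoter, chr1:231422238-231422537, minus strand: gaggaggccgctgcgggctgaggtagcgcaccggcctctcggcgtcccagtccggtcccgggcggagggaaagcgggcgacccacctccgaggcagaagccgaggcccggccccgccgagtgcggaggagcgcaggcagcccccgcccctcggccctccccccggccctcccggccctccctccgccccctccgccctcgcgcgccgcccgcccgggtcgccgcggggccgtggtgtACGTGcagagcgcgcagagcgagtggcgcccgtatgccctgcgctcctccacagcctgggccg
EGLN2 promoter, chr19:40798941-40799240, plus strand: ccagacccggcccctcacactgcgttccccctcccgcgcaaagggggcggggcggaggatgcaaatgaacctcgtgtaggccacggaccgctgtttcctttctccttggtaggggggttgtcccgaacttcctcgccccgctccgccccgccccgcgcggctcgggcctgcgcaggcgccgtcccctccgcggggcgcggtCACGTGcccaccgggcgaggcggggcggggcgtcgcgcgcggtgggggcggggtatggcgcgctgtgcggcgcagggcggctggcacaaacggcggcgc
EGLN3 promoter, chr14:33951025-33951324, minus strand: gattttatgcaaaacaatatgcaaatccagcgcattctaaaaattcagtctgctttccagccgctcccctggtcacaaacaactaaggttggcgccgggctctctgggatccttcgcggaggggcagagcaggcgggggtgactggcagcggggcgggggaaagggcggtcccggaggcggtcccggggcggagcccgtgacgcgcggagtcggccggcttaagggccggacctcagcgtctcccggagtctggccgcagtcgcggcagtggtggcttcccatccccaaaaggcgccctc
EGLN1 has ACGTG with its first base 13 bases before the start, EGLN2 has it on both strands 48 to 49 bases before the start of the window shown, and these letters are not in the EGLN3 window. Of all the members' windows, 5 of 12 hold such a match, against 48.4% of all 35116 promoters (21.4% with ACGTG and 36.5% with GCGTG). HIF1A and EPAS1 have 1 GCGTG each, 204 and 117 bases before the start, and HIF3A has 3 in its first window. A match is a description of letters, and the libraries hold no measure of binding.

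The files hold 108 annotated transcripts of the 10 genes, of which 43 had a mean count above 10. None of the 43 was called in edgeR at the level of transcripts, where 0.204% of 86178 transcripts were called, and 4 had an unadjusted p under 0.05. ARNT-202, the main ARNT transcript of 789 codons, was at 0.22 on the log2 scale (edgeR adjusted p = 0.321). ARNT-201, with 19 to 160 counts, had −1.92 (edgeR adjusted p = 0.264). EGLN2-201 had 0.20 and the minor EGLN2-207 had −0.82 (adjusted p = 0.466 and 0.324 by edgeR). DESeq2 called 3 of these, ARNT-202 (adjusted p = 0.00705), ARNT-201 (adjusted p = 0.00249) and EGLN2-207 (adjusted p = 0.00591). That is 6.98% of the 43, against 7.0% of the 83898 transcripts with an adjusted p in DESeq2, the same share as the background. Among the 27 transcripts that made up at least 5% of their gene's TPM, the groups did not overlap for 3 (11.1%), against 13.9% of all transcripts under the same limits.

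Those 3 belonged to prolyl hydroxylases. EGLN2-201, which encodes the enzyme of 407 codons, took 77.0%, 83.8% and 83.4% of EGLN2 TPM in −Dox and 85.3%, 84.9% and 85.4% in +Dox. The retained-intron transcript EGLN2-216 took 7.79%, 6.98% and 6.10% in −Dox and 5.58%, 5.28% and 4.39% in +Dox. The first −Dox library was farthest from the +Dox libraries in both. Without −Dox replicate 1 the difference in EGLN2-201 share dropped from 3.73 to 1.53 percentage points, and with estimated counts in place of TPM that of EGLN2-216 went from −1.87 to −3.43 percentage points. EGLN3-205, with an open reading frame of 148 codons, took 11.4%, 8.99% and 9.95% of EGLN3 TPM in −Dox and 13.4%, 16.1% and 15.0% in +Dox. Each of these share differences had p = 0.1 by the exact permutation test, the smallest possible with 3 against 3. EGLN3-205 itself had 143, 131 and 142 counts in −Dox and 103, 130 and 160 in +Dox. Its log2 fold change was −0.061 (edgeR adjusted p = 0.981 over transcripts), so its higher share does not show a rise of the transcript itself. The full-length EGLN3-201 of 239 codons carried most counts, 732, 869 and 950 in −Dox and 436, 623 and 743 in +Dox, with a log2 fold change of −0.49 (edgeR adjusted p = 0.523 over transcripts). EGLN3-209 (145 codons) ranged from 0 to 107 counts, with 0 in +Dox replicate 2.

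HIF1A reads fell mainly on HIF1A-202, of 826 codons, which took 53.9% ± 0.747 of HIF1A TPM in −Dox and 54.4% ± 2.51 in +Dox (SD, n = 3). HIF1A-203, which gains 3 bases at the start of its second coding exon (827 codons), took 17.1% and 19.2%. HIF1A-201 skips coding exon 14 of 15 and ends early, at 735 codons. Its share was 6.18% ± 1.40 in −Dox and 5.0% ± 0.535 in +Dox, with overlapping groups. The skipped exon, at chr14:61745691-61745817 on hg38 (plus strand, 127 bases), is shown because it tells the long and short coding forms apart.
HIF1A coding exon 14: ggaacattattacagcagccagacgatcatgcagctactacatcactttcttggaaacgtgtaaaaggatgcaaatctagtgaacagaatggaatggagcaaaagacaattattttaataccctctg
The retained-intron transcript HIF1A-205 took 20.1% ± 2.74 of TPM in −Dox and 16.6% ± 3.85 in +Dox but had only 83 to 143 counts, since it is 711 bases long.

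Of the other genes, EGLN1-201 (426 codons) took 74.8% of EGLN1 TPM in −Dox and 72.9% in +Dox, ahead of EGLN1-204 and EGLN1-206. VHL-201 (213 codons) took 65.7% in −Dox and 63.8% in +Dox, and VHL-202 (172 codons), which lacks an exon of the full-length form, took 12.8% and 15.3%. ARNT-202 took 48.6% and 55.4% of ARNT TPM, ahead of ARNT-208 (774 codons) at 19.1% and 20.3%. HIF1AN-201 (349 codons) held 44.7% and 45.5%, beside the short transcripts HIF1AN-203 and HIF1AN-204. EPAS1-201 (870 codons) held 27.0% in −Dox and 17.6% in +Dox and the −Dox libraries alone ranged from 17.6% to 32.2%, so the groups overlapped. Short retained-intron transcripts such as EPAS1-205 and EPAS1-210 took much of the remaining EPAS1 TPM, on at most 48 counts each.

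**Figure D4:**
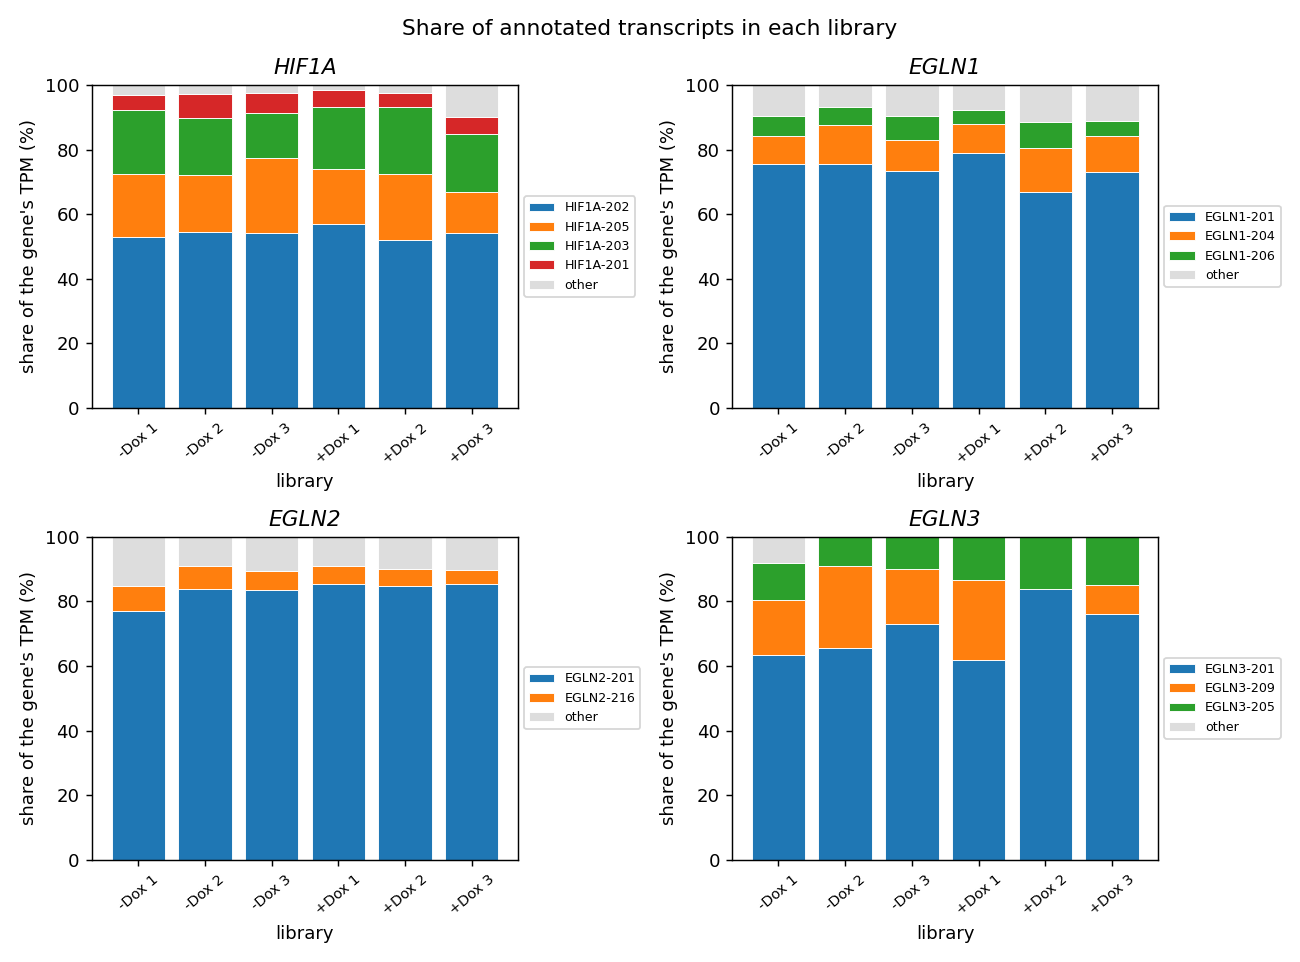
Stacked bars of the share (%) of each gene's TPM on its annotated transcripts in each of the 6 libraries, for HIF1A, EGLN1, EGLN2 and EGLN3, with transcripts under 5% pooled as other. EGLN3-205 (green) is 8.99% to 11.4% in −Dox and 13.4% to 16.1% in +Dox, and EGLN3-209 (orange) is 0 in +Dox library 2.

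Several genes share exon bases with the members, and the strand setting of the quantification is not given in the sources used here. HIF1A-AS3, on the opposite strand of HIF1A, had 999 to 1359 counts and a log2 fold change of 0.0061 (edgeR adjusted p = 0.974). The readthrough gene RAB4B-EGLN2, on the strand of EGLN2, had 11 to 67 counts (log2 fold change −0.17, edgeR adjusted p = 0.905). NDUFB8, a respiratory chain gene on the strand opposite HIF1AN that shares 325 exon bases with it, had 0.16 (edgeR adjusted p = 0.125). ENSG00000259175 at ARNT2 and ENSG00000255339 at HIF1AN were not called in edgeR (adjusted p = 0.202 and 0.945). HIF1A-AS1, ENSG00000258964, ENSG00000287856 (EGLN1), ENSG00000287086 (VHL) and the remaining overlapping genes had at most 30 counts in a library.

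The partners of VHL in its ligase are ELOB, ELOC, CUL2 and RBX1, and 0 of these 4 were called, with a median log2 fold change of 0.0018. ELOC was at −0.098 (edgeR adjusted p = 0.235), and ELOB, CUL2 and RBX1 lay between −0.033 and 0.048, with signs that turned when a library was left out. Of 10 regulators of HIF or PHD proteins, 1 rose and 2 fell (median −0.034), or 30% called against 15.8% of all genes. HSP90AA1 and HSP90AB1, the chaperones that stabilise HIF1A protein, fell by 0.32 and 0.34 on the log2 scale (adjusted p = 0.000408 and 0.000361 by edgeR). FKBP8, which binds EGLN1 and promotes its turnover, rose by 0.28 (edgeR adjusted p = 0.0128). STUB1, a ubiquitin ligase, was at −0.18 (adjusted p = 0.0753) and the deubiquitinase USP20 at −0.057 (edgeR adjusted p = 0.530), so neither was called. The FKBP8 call was lost without +Dox replicate 1 (edgeR adjusted p = 0.0583) and without +Dox replicate 3 (0.0618), and STUB1 was called without −Dox replicate 1 (0.0264) and in 4 of the 8 alternatives that keep all libraries (adjusted p of 0.0258 by DESeq2, 0.0173 by limma on TPM, and 0.0401 and 0.0118 by edgeR with at least 10 counts in every library and with no filter).

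Of 9 coactivator genes and their competitors, 2 rose and none fell (median 0.054), or 22.2% called against 15.8% of all genes. NCOA1 rose by 0.28 (edgeR adjusted p = 0.00331). CITED2, which competes with the alpha subunits for CREBBP and EP300, rose by 0.23 (edgeR adjusted p = 0.0180). CITED4 (1.05) and CITED1 (−0.43) were low in counts and not called (adjusted p = 0.105 and 0.10 by edgeR), and CREBBP was at 0.12 (edgeR adjusted p = 0.281). Calls of NCOA1 and CITED2 were lost with limma on TPM (adjusted p = 0.364 and 0.147) and with the offset for transcript length (0.114 and 0.0848 by edgeR), which left 0 calls in the list, and that of CITED2 also without +Dox replicate 3, −Dox replicate 2 or −Dox replicate 3 (edgeR adjusted p between 0.0538 and 0.0814). Of 11 relatives with the same bHLH-PAS fold, 5 were tested and 0 called (median −0.019). CLOCK and its partner BMAL2 were the most abundant of these, at 41.1 ± 3.58 and 12.8 ± 0.129 CPM in −Dox (SD, n = 3). AHRR (−0.37), NPAS1 (−0.19) and BMAL1 (0.19) were below 3 CPM, and AHR, which also pairs with ARNT, was below the count limit.

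Of 13 enzymes of 2-oxoglutarate, succinate, fumarate and 2-hydroxyglutarate metabolism, whose metabolites feed or inhibit the hydroxylases, 1 rose and 2 fell (median 0.017), or 23.1% called against 15.8% of all genes. IDH2, the mitochondrial NADP-dependent isocitrate dehydrogenase, rose by 0.49 (edgeR adjusted p = 0.000534). IDH3A and IDH3B, subunits of the NAD-dependent enzyme, fell by 0.21 and 0.18 on the log2 scale (adjusted p = 0.0161 and 0.0237 by edgeR). IDH1 (0.12) and D2HGDH (−0.16) were not called (adjusted p = 0.146 and 0.138 by edgeR). Leaving out +Dox replicate 3 or −Dox replicate 2 ended the call of IDH3A (edgeR adjusted p = 0.0716 and 0.0764), these and +Dox replicate 2 or −Dox replicate 3 ended that of IDH3B (0.0537 to 0.104), and IDH1 was called without −Dox replicate 1 (0.0388). Of 9 iron chaperones and iron regulatory proteins, 8 were tested, 3 rose, PCBP1 included, and 1 fell (median 0.072), or 50% called, the overexpressed gene among them, against 15.8% of all genes. PCBP2, which shares the iron delivery role, rose by 0.16 (adjusted p = 0.0244), NCOA4, the ferritin receptor for autophagy, rose by 0.34 (adjusted p = 0.00137), and GLRX3 fell by 0.20 on the log2 scale (edgeR adjusted p = 0.0141). PCBP4 was at 0.31 (edgeR adjusted p = 0.185). The PCBP2 call was lost with each of the 6 libraries left out in turn (edgeR adjusted p between 0.0512 and 0.0704), and that of GLRX3 without +Dox replicate 1, +Dox replicate 2 or −Dox replicate 3 (0.0555 to 0.0623). The offset for transcript length also ended both calls (0.0707 and 0.143 by edgeR), and limma on TPM that of PCBP2 (0.117).

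Of 25 target genes of HIF, 23 were tested, 3 rose and 8 fell, or 47.8% called against 15.8% of all genes, with a median of −0.0995. The 5 with the smallest p were the glucose transporter SLC2A3 (−1.004), the repressor BHLHE40 (−0.94), the glycolytic kinase HK2 (−0.65), the mTORC1 inhibitor DDIT4 (−2.04) and the vessel growth factor VEGFA (−0.52), and all 5 had adjusted p of at most 0.000403 in edgeR. SLC2A1, another glucose transporter, was among the 3 that rose, by 0.40 (edgeR adjusted p = 0.00129). EGLN3, which is induced by HIF as well, is not counted in this list. The list was chosen with these results known and its direction is not independent evidence. The 15.8% set beside each list covers all tested genes, weakly expressed ones included, and was not matched to any list by level.

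**Figure D5:**
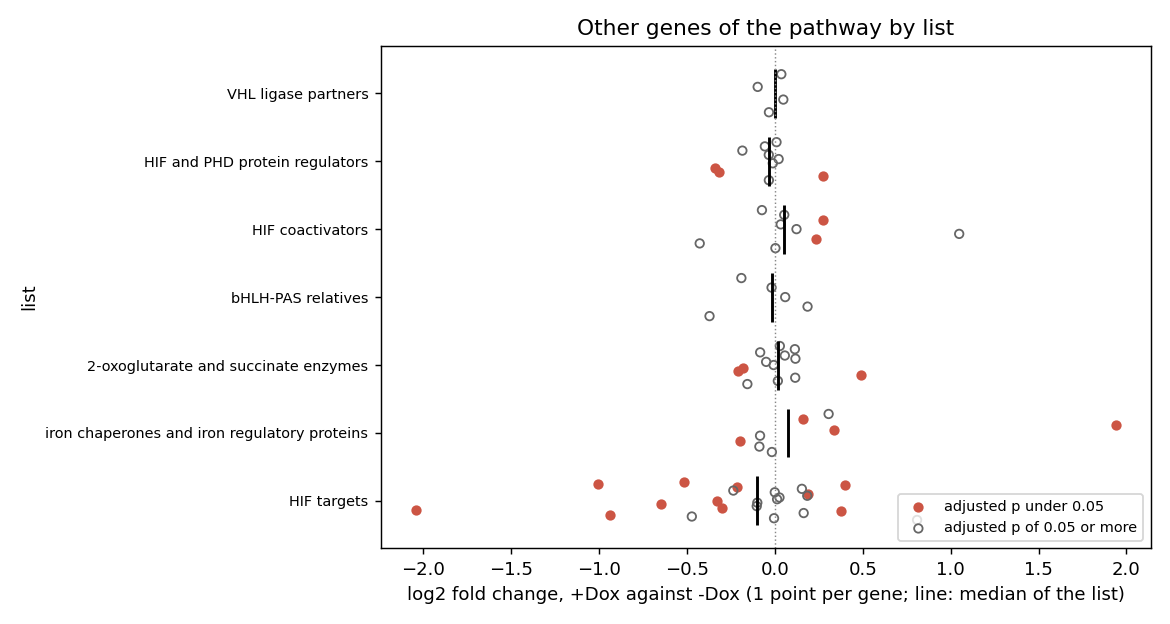
Log2 fold change (+Dox against −Dox, edgeR) of each tested gene in 7 pathway lists, with genes called at an adjusted p under 0.05 as filled points and a black line at each list's median. Medians lie between −0.0995 (HIF targets) and 0.072 (iron chaperones and iron regulatory proteins), and the filled point farthest right is PCBP1 at 1.94.

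The cell type was checked with marker genes. The erythroid markers were present, GATA1 at 124.1 TPM in −Dox and 130.2 TPM in +Dox and the fetal globin HBG2, the most abundant, at 9789 and 10000 TPM. CD3D, a T cell gene, was at 33.6 to 57.4 TPM, but CD3E and CD2 were at most 0.069 TPM. Of the B cell genes, CD79A was at most 0.152 TPM and MS4A1 was at 0 counts in all libraries, and the fibroblast and the monocyte genes each summed to at most 0.922 TPM in a library. Several erythroid markers differed between the groups. EPOR, the erythropoietin receptor, rose by 0.97 on the log2 scale (edgeR adjusted p = 6.52e-07), from a mean of 7.46 TPM in −Dox to 14.1 TPM in +Dox. KLF1 and TAL1, erythroid transcription factors, rose by 0.46 and 0.44 (adjusted p = 0.00121 and 8.34e-05 by edgeR). The transferrin receptor gene TFRC fell by 0.34 (adjusted p of 0.000856 by edgeR), while GATA1 (0.12), HBG2 (0.016) and HBE1 (−0.13) were not called. The part of these shifts in the EGLN3 result was not tested, and in bulk RNA fewer cells with a transcript and less of it per cell cannot be told apart.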

How the data were processed

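The authors sequenced polyA RNA with paired-end reads of 150 cycles and quantified it with Salmon 1.10.2. For every transcript they deposited, library by library and unpooled, its estimated count and its TPM. The index, strand and bias settings of Salmon are not given in the sources used here. Of 252045 transcripts, 251612 matched GENCODE 44 (GRCh38) and 433 did not, and the latter held 0.125% to 0.138% of counts. Estimated counts and deposited TPM were summed per gene, and counts were rounded.

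Genes and, separately, transcripts with a mean count above 10 over the 6 libraries were tested with edgeR 4.0.16 (glmQLFit, glmQLFTest, TMM, two-sided) in R 4.3.3, with Benjamini-Hochberg adjustment. Standard errors were taken as log2 fold change over the square root of F. Shares used exact permutation tests. Alternatives were DESeq2 1.42.0, limma 3.58.1 on log2(TPM + 0.5), RLE factors, other count filters, a length offset, a replicate block and each library left out. Replicates differed by more than counting noise (chi-square per gene 8.25 to 17.4).

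Named were all 10 members, PCBP1, up to 5 genes per pathway list by p and any DEG, overlapping genes, transcripts of at least 5% of their gene and the 3 genes most correlated with HIF1A and with EGLN3. SLC2A1 in the HIF target list and AHR were named after their values were seen. The members and lists were chosen with earlier results of these data known. The steps were tested on simulated data. Some of the cell type markers are not reported here.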

Additional observations from a re-analysis of the deposited data

How the results depend on the processing

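The call of EGLN3 was lost when any of 3 libraries was left out. The number of members called was 0 to 1 with a library left out, and 0 without +Dox replicate 1, +Dox replicate 2 or −Dox replicate 3. In the 8 alternatives that keep all libraries EGLN3 stayed called, with a log2 fold change of −0.65 (offset for transcript length) to −0.52 and adjusted p of 0.0332 (limma on TPM) or lower. The replicate numbers did not mark shared deviations (correlations 0.0075, −0.060 and −0.0029 between same-numbered libraries), and with the number as a replicate block 1 member was called, EGLN3 (−0.52 on the log2 scale, edgeR adjusted p = 0.00277), while 2490 genes were called and 298 were DEGs. Among the other genes named from the lists, the block ended the calls of IDH3B (edgeR adjusted p = 0.0702) and PCBP2 (0.105).

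Over all genes, 3333 were called, 1622 with limma on TPM, 1883 with the length offset and 2267 to 3313 with a library left out. DEGs numbered 308, and 90 with limma on TPM, 515 without a filter on low counts and 231 to 313 with a library left out. Member transcripts called were 0, and 3 with DESeq2, 6.98% of the 43 against 7.0% of all transcripts. Transcript shares with separate groups were 3, and 3 to 8 with a library left out, where separation is easier. Separate neighbours in the +Dox order were 5, and 8 with CPM per kilobase. The pathway lists held 23 calls, 17 to 26 over the alternatives.

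Signs turned only for values that were not called. With limma on TPM they turned for HIF1A (−0.034), EPAS1 (0.15), ARNT (−0.032), ELOB (−0.0091), CREBBP (−0.16) and NPAS1 (0.081). With the length offset they turned for EPAS1 (0.23), CUL2 (0.0027), CREBBP (−0.13) and NPAS1 (0.14). With a library left out, log2 fold changes ranged from −0.24 to 0.12 for EPAS1, −0.030 to 0.11 for ELOB, −0.077 to 0.0092 for CUL2, −0.012 to 0.079 for RBX1 and −0.065 to 0.053 for CLOCK. Some other values that were not called kept their sign with a library left out but changed in size. HIF1AN ranged from −0.19 to −0.072, VHL from −0.15 to −0.070 and EGLN1 from −0.14 to −0.058. AHRR ranged from −0.58 to −0.19, NPAS1 from −0.32 to −0.060 and BMAL1 from 0.0093 to 0.46. With the length offset BMAL1 was at 0.90. The EPAS1 share of the summed alpha subunits differed by −0.41 percentage points with CPM per kilobase and by −0.36 to 3.50 with a library left out. These shares were added after the data were seen. Of 693 values of single genes, lists and shares under an alternative, 621 kept direction and call or, for counts of calls, stayed within 1.5 times, 43 lost and 6 gained a call or left that range, 22 turned sign and 1, the share of EGLN2-216 from estimated counts, moved further than the spread. The causes were not tested.

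Depth limits HIF3A and ARNT2, at up to 6 counts a library, and the shares of short transcripts, which rest on few counts.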

Other observations

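Over the 6 libraries, the 3 protein-coding genes whose log2 CPM followed HIF1A most closely, among 8741 genes with a mean of at least 10 CPM, were ARGLU1 (Pearson r = 0.992), TSTD2 (r = 0.989) and ZNF197 (r = 0.984). Their own log2 fold changes were 0.047, 0.065 and 0.058. For EGLN3 they were EGFL7 (r = 0.996), QPCTL (r = 0.990) and KCMF1 (r = 0.990), with log2 fold changes of −0.48, −0.26 and −0.089. The genes share libraries, depth and the contrast between −Dox and +Dox, 6 points allow many high values among 8741 genes, and these correlations are descriptions only.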
